A study of Mus musculus with 9 samples.

Results

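The genes examined here copy the genome or carry a cell through division, and 47 of them were chosen by symbol from a table of 16857 genes measured by RNA sequencing of mouse liver. Of these, 35 act at the start of S phase or during DNA copying and are called G1/S genes, and 12 act in mitosis or its approach and are called G2/M genes. Every mouse had been injected with acetaminophen (APAP), the painkiller whose overdose kills hepatocytes around the central veins. Afterwards the mice received leonurine (Leo), a plant alkaloid, or saline. The 4 groups were Adipor2 knockout given leonurine (2 libraries), Adipor2 knockout given saline (2 libraries), wild type given leonurine (2 libraries) and wild type given saline (3 libraries). Adipor2 encodes a receptor for the hormone adiponectin, and the series was set up to ask whether leonurine acts on the injured liver through it. No group without acetaminophen was analysed here. The sources used here do not give the dose, the interval, age or sex of the mice, the deleted part of the gene or the cells that carry the deletion.

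Adult hepatocytes rarely divide, but after an injury such as acetaminophen overdose the survivors re-enter the cell cycle and replace the lost tissue. D-type and E-type cyclins with their kinases release E2F transcription factors, which switch on the helicase, clamp, polymerase and nucleotide genes needed to copy DNA. Mitotic genes follow later, under the DREAM and MuvB complexes with B-MYB and FOXM1. These act through a promoter element called the cell cycle genes homology region (CHR), and CCAAT boxes are another element counted below. In bulk liver, fewer cycling cells and less RNA per cycling cell cannot be told apart.

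The libraries held 35316653 to 38996734 fragments, recovered as whole numbers from the deposited values. Adipor2 itself averaged 80.4 ± 6.51 FPKM (fragments scaled by gene length and library total) in knockouts given leonurine, 73.1 ± 4.14 in knockouts given saline, 83.3 ± 6.81 in wild type given leonurine and 134 ± 7.57 in wild type given saline (SD, n = 2, 2, 2 and 3). Because the transcript is still abundant, these mice are called labelled knockouts. The 2 libraries from labelled knockouts given leonurine held 0 and 2 fragments of 4 Y-linked genes, against 4154 to 5275 in the other 7, so that sex cannot be told apart from the group in any comparison that uses them. The deposited column names of these 2 libraries also carry higher numbers than the other 7. What the numbers reflect is not stated, and it cannot be told apart from the group either. All 9 hepatocyte markers examined were above 0 in every library. Within both leonurine groups the 2 libraries also stood far apart in the genes described here, as the values below show. Separate animals for each library are not stated in the labels, so p-values measure the spread between these libraries, which may be technical.

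All 47 genes were in the table, and 46 passed the filter on low values (1 FPKM or more in at least 2 of the 9 libraries). The gene that did not was Orc1, a subunit of the origin recognition complex, at 0.00889 to 0.445 FPKM and 1 to 52 fragments. Over genes and libraries the median was 469 fragments. The most abundant members were Pcna, the sliding clamp that holds polymerases on DNA, at 13.6 to 86.2 FPKM, and Ccnd1 (cyclin D1), the mitogen-responsive partner of CDK4 and CDK6, at 24.2 to 69.8 FPKM. In both genes the lowest library was the second from wild type given leonurine. Among the 47 genes, 14 share exonic bases with a protein-coding gene on the other strand (Mcm7, Rfc2, Rfc4, Rfc5, Gins2, Cdc45, Orc6, Tk1, Lig1, Fen1, Ccnd1, Ccne2, Ccna2 and Cdc20), and 4 have named pseudogenes (Pcna, Tyms, Ccnb1 and Ccnb2), so that fragments of these may be split or shared in counting. Per library, the median G1/S gene had 6.79 and 1.78 FPKM in labelled knockouts given leonurine, 8.25 and 10.3 in labelled knockouts given saline, 7.06 and 2.55 in wild type given leonurine, and 4.04, 2.58 and 4.39 in wild type given saline. The median G2/M gene had 5.84 and 1.71 FPKM in labelled knockouts given leonurine, 9.24 and 8.15 in labelled knockouts given saline, 7.73 and 5.41 in wild type given leonurine, and 5.73, 4.32 and 6.75 in wild type given saline. Labelled knockouts given saline were thus the highest group for both sets, and each leonurine group held a high and a low library for G1/S genes, as labelled knockouts did for G2/M genes too.

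**Figure D1:**
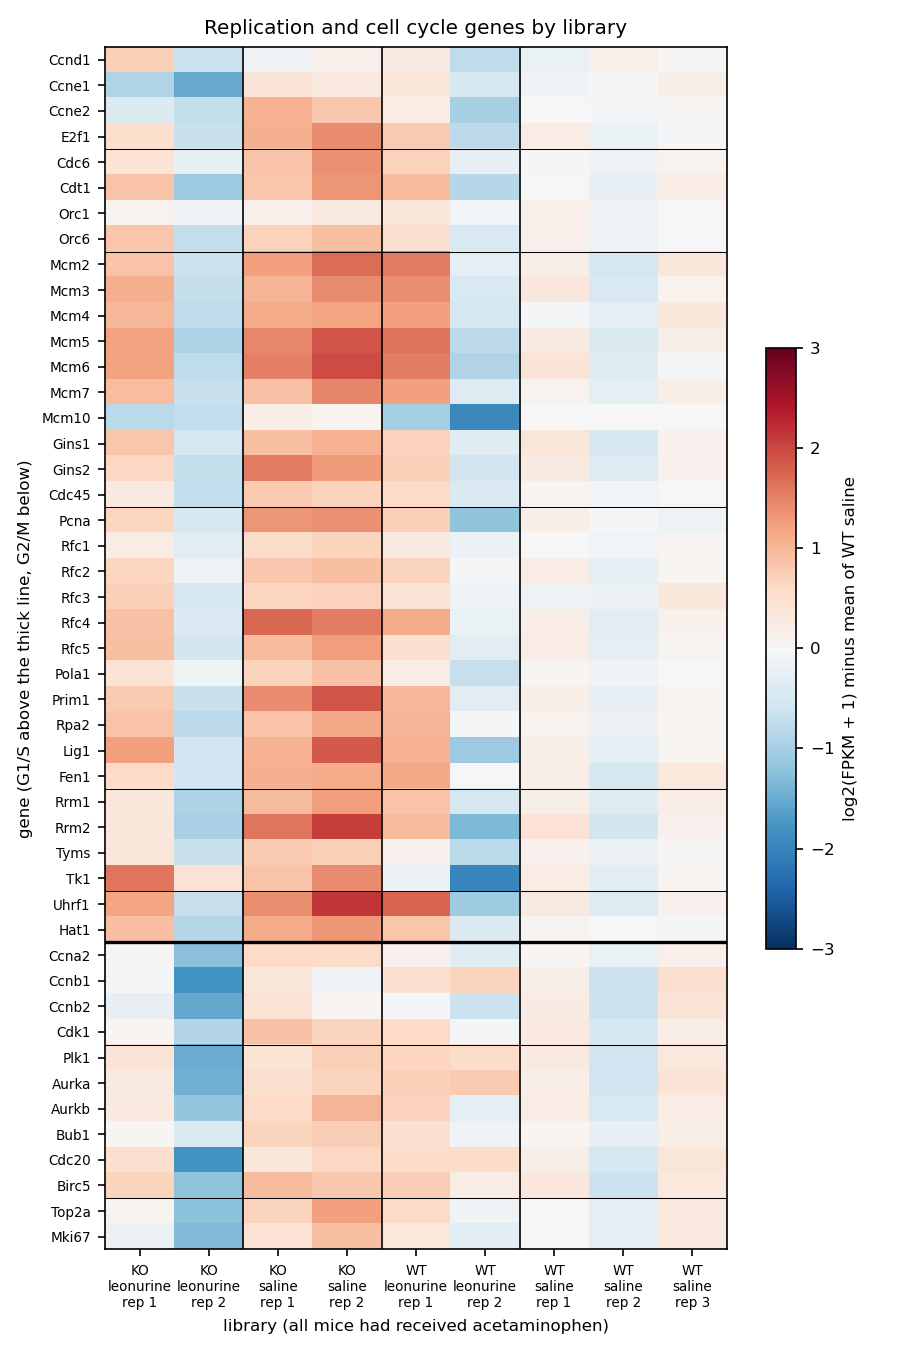
Level of each of the 47 genes (rows, grouped by role, G1/S above the thick line and G2/M below) in each of the 9 libraries (columns), as log2(FPKM + 1) minus the mean of wild type given saline; KO stands for labelled knockout. Both columns of labelled knockouts given saline are red in nearly all rows, while the first and second leonurine libraries of each genotype differ in colour over most G1/S rows.

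**Figure D2:**
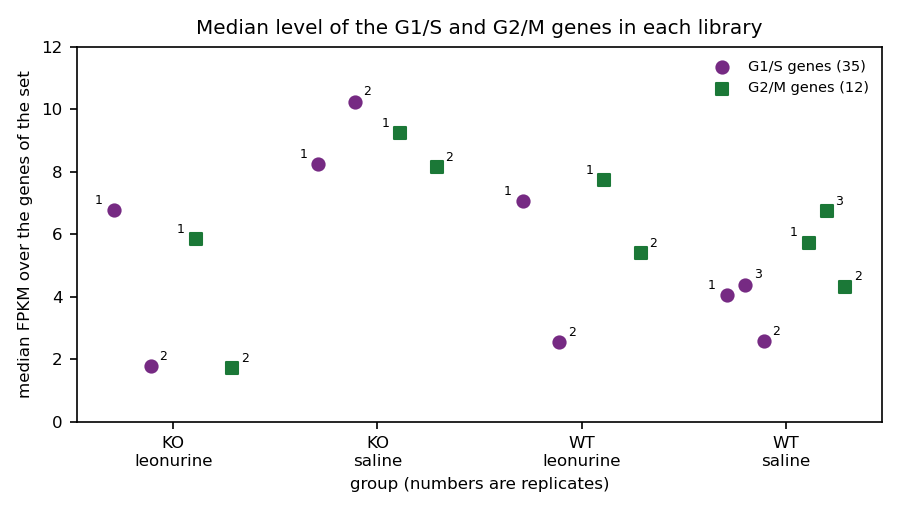
Median FPKM of the 35 G1/S genes (circles) and the 12 G2/M genes (squares) in each library, by group, with replicate numbers beside the points. The second leonurine library of the labelled knockout is lowest for both sets (1.78 and 1.71 FPKM), and the second of wild type is low for G1/S (2.55 FPKM) but not for G2/M genes (5.41 FPKM).

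The split inside the leonurine groups differed between the sets of genes. In labelled knockouts given leonurine, replicate 1 was at least 2-fold above replicate 2 in 42 of 47 genes, 30 of 35 G1/S and 12 of 12 G2/M, where 5.21% of all tested genes did so. Plk1 (Polo-like kinase 1, which drives mitotic entry) showed the widest ratio, 8.05. In wild type given leonurine, replicate 1 was at least 2-fold above replicate 2 in 33 of 47 genes, against 8.12% of all tested genes. These were 31 of 35 G1/S genes but 2 of 12 G2/M genes. Uhrf1, which brings the maintenance methyltransferase to newly copied DNA, had the widest ratio there, 19.8 (9.26 and 0.468 FPKM). Ccnb1 (cyclin B1, the partner of CDK1 at mitotic entry) had 10.8 and 12.2 FPKM in the same pair of libraries. In labelled knockouts given saline, 0 of 47 genes were at least 2-fold higher in replicate 1, where 1.22% of tested genes were.

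On a log2(FPKM + 1) scale, the G1/S median minus the G2/M median was 0.19 and 0.04 in labelled knockouts given leonurine and -0.15 and 0.31 in labelled knockouts given saline. The same difference was -0.11 and -0.85 in wild type given leonurine, and -0.415, -0.57 and -0.52 in wild type given saline. Under each injection, both labelled knockout libraries therefore lay above every wild-type library in this balance of G1/S over G2/M genes. This is a description of the libraries, and no test was made of it.

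The promoters of these genes were read next, since the G1/S and G2/M sets differed between libraries. RefSeq (GRCm38.p6) gave 44 promoters for 39 of the 47 genes, 4 of which have more than 1 promoter, and the 250 bases before each start were searched on both strands. An E2F element (TTT, then 2 bases each C or G, then CGC) was in 23.5% of 34 G1/S promoters and 1 of 10 G2/M promoters, against 1.86% of all 32851 promoters. The CHR (TTTGAA or TTTAAA) was in 17.6% of G1/S promoters and 80.0% of G2/M promoters, against 25.2% of all. A CCAAT box (CCAAT) was in 61.8% of G1/S and 90.0% of G2/M promoters, against 33.8% of all. Each share is a count of letters, and neither a match nor its absence shows what a factor does there. The 6 windows below run 5′ to 3′ in the direction of the gene, all from the minus strand, with matches in capitals, where ATTGG is CCAAT on the other strand. Ccne1 and Tk1 (G1/S) and Ccnb1 and Aurka (G2/M) are shown because they had the smallest p of their set in the comparison with the most called members. Mcm6 and Cdk1 were added after the matches were seen, as examples with E2F elements. In Mcm6 an E2F match on each strand overlaps the other, which gives 1 longer run of capitals.
Mcm6: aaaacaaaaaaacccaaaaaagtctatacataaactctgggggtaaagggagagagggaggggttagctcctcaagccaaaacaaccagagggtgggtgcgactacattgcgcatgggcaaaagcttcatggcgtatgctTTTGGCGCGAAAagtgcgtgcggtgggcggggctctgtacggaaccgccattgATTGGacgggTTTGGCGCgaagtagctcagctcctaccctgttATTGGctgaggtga
Ccne1: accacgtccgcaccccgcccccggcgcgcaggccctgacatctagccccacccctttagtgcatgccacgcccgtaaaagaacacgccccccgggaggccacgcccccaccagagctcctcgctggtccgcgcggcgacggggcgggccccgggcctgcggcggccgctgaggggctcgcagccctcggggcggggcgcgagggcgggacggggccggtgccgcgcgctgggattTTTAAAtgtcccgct
Tk1: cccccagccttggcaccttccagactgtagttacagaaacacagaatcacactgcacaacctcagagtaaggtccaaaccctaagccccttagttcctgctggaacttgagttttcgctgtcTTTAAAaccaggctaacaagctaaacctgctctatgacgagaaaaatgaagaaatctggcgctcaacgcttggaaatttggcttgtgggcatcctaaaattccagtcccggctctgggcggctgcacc
Cdk1: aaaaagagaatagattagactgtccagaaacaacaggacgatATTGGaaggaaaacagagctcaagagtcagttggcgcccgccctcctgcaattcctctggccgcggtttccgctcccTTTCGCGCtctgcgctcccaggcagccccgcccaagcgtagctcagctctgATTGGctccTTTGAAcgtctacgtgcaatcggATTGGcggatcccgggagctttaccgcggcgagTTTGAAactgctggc
Ccnb1: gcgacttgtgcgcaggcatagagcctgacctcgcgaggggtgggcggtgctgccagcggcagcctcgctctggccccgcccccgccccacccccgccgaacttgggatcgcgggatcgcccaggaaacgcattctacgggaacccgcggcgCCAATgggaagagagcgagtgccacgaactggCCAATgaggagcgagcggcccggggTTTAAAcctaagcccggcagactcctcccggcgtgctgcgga
Aurka: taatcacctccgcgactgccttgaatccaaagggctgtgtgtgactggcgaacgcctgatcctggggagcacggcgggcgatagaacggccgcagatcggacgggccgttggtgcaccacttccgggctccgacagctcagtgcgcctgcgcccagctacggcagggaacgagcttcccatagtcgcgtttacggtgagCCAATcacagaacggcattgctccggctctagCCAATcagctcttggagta
The windows are Mcm6 at chr1:128359706-128359955, Ccne1 at chr7:38107491-38107740, Tk1 at chr11:117826015-117826264, Cdk1 at chr10:69352913-69353162, Ccnb1 at chr13:100786487-100786736 and Aurka at chr2:172370571-172370820. Mcm6 holds 3 E2F elements and no CHR, and Ccnb1 holds a pair of CCAAT boxes followed by a CHR. Cdk1 holds an E2F element, CCAAT boxes and the CHR together. Ccne1 and Tk1 hold a CHR match but none of the E2F spelling searched. The windows of Ccne1, Tk1, Cdk1 and Ccnb1 reach into the gene spans of GENCODE, which places these starts further upstream than RefSeq. In Ccne1, Cdk1 and Ccnb1 the CHR match nearest the RefSeq start lies inside that span.

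The first comparison set labelled knockouts against wild type under saline, that is, the labelled genotypes without leonurine. Nearly all replication genes were higher in the labelled knockouts, by a median of 1.11 on the log2 scale for G1/S genes and 0.63 for G2/M genes, against 0.08 for all tested genes. Both labelled knockout libraries lay above all 3 wild-type libraries in 42 of 47 genes (33 of 35 G1/S and 9 of 12 G2/M), where 27.6% of all tested genes did so, and 0 of 47 lay below, where 11.1% did. The 5 that overlapped were Orc1, Ccnd1, Ccnb1, Ccnb2 (cyclin B2) and Cdc20, the activator of the anaphase-promoting complex. No gene of the 47 passed the test over all genes. With limma, 0 had an adjusted p under 0.05, where 0.00957% of tested genes passed in each direction, and 28 of 46 (25 G1/S and 3 G2/M) were higher at an unadjusted p under 0.05, against 9.95% of tested genes. None was lower at that level, against 3.24% of tested genes.

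Among the genes that start replication, Cdc6, which loads the helicase onto origins (chromosome 11, 98907801 to 98923940), had 1.56 and 2.63 FPKM in labelled knockouts given saline, against 0.449, 0.274 and 0.527 in wild type given saline. Cdt1, its partner in loading, had 6.64 and 9.72 FPKM in labelled knockouts, against 3.33, 2.61 and 4.03 in wild type. The groups did not overlap in either gene, and the ratio of means for Cdc6, 5.02, came with a log2 difference of 1.11 ± 0.29 (SE, limma adjusted p = 0.220). Orc6, another origin recognition subunit, had 4.37 and 5.25 FPKM in labelled knockouts, against 2.72, 2.04 and 2.30 in wild type.

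Of the helicase genes, Mcm6, a subunit of the MCM2-7 ring (chromosome 1, 128331590 to 128359664), had 18.1 and 24.9 FPKM in labelled knockouts given saline, against 7.74, 4.20 and 5.53 in wild type. The ring subunit Mcm5 (chromosome 8, 75109569 to 75128439) had 16.2 and 22.5 FPKM in labelled knockouts, against 6.63, 3.68 and 6.19 in wild type. All 10 genes of the helicase and its activators lay above wild type without overlap, with a median log2 difference of 1.20. Gins2, a subunit of the GINS complex that activates the ring (chromosome 8, 120578633 to 120589304), had 11.7 and 9.54 FPKM in labelled knockouts, against 4.22, 2.32 and 3.79 in wild type. Its difference was 1.41 ± 0.43 (adjusted p = 0.261), but 2758 of its exonic bases are shared with Gse1 on the other strand. The member of the group with the smallest difference was Mcm10, a factor that helps the helicase start (chromosome 2, 4989714 to 5012791), at 17.9 and 16.4 FPKM in labelled knockouts and 15.5, 15.3 and 15.4 in wild type.

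At the fork, Prim1, the catalytic subunit of primase (chromosome 10, 128015168 to 128030037), had 8.70 and 12.6 FPKM in labelled knockouts given saline, against 3.14, 2.06 and 2.84 in wild type. Rfc4, a subunit of the clamp loader (chromosome 16, 23113943 to 23127737), had 8.18 and 7.08 FPKM in labelled knockouts, against 2.16, 1.23 and 2.03 in wild type. The ratios of means were 3.97 for Prim1 and 4.22 for Rfc4, with log2 differences of 1.65 ± 0.45 (adjusted p = 0.220) and 1.63 ± 0.42 (adjusted p = 0.212). Pcna had 82.7 and 86.2 FPKM in labelled knockouts, against 37.5, 31.2 and 29.4 in wild type (log2 difference 1.35 ± 0.49, adjusted p = 0.317). Of the 11 genes of the clamp, clamp loader, polymerase and ligation group, 11 lay above wild type, from 0.61 (Rfc1, the large clamp loader subunit) to 1.65 (Prim1). That range takes in Lig1 and Fen1, which join and trim the fragments of the lagging strand, and Rpa2, which binds unwound DNA.

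For the supply of nucleotides, Rrm2, the regulatory subunit of ribonucleotide reductase (chromosome 12, 24708241 to 24714146), had 33.5 and 46.4 FPKM in labelled knockouts given saline, against 14.2, 6.69 and 11.4 in wild type. Its log2 difference, 1.84 ± 0.62 (adjusted p = 0.286), was the largest of the 46 tested genes. Rrm1, the catalytic subunit, had 13.6 and 17.1 FPKM in labelled knockouts, against 7.48, 4.84 and 7.69 in wild type. Uhrf1 had 7.08 and 12.5 FPKM in labelled knockouts, against 2.66, 1.33 and 2.34 in wild type, and Hat1, which acetylates new histone H4, had 15.3 and 17.7 FPKM against 6.98, 6.45 and 6.21. In these 4 genes every labelled knockout library lay above every wild-type library.

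Upstream regulators were mixed. E2f1, a transcription factor that switches on S phase genes, had 6.61 and 8.68 FPKM in labelled knockouts given saline, against 3.22, 2.17 and 2.54 in wild type. Ccne2 (cyclin E2, a partner of CDK2) had 6.20 and 5.13 FPKM in labelled knockouts, against 2.50, 2.44 and 2.63 in wild type. Ccnd1 had 39.0 and 46.7 FPKM in labelled knockouts, against 36.4, 46.6 and 43.0 in wild type (log2 difference 0.03 ± 0.40, adjusted p = 0.985). E2f1 and Ccne2 thus stood above wild type in both libraries, while Ccnd1 overlapped.

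The mitotic genes differed less. Bub1, a kinase of the spindle checkpoint (chromosome 2, 127801122 to 127831865), had 1.52 and 1.63 FPKM in labelled knockouts given saline, against 0.645, 0.340 and 0.799 in wild type (log2 difference 0.70 ± 0.22, adjusted p = 0.263). Top2a, the topoisomerase that untangles sister chromatids (chromosome 11, 98992943 to 99024189), had 9.30 and 14.2 FPKM in labelled knockouts, against 5.42, 4.34 and 7.01 in wild type (0.95 ± 0.37, adjusted p = 0.335). Cdk1, the kinase that drives mitosis (chromosome 10, 69335146 to 69352938), had 7.94 and 6.66 FPKM in labelled knockouts, against 4.91, 2.45 and 4.51 in wild type (0.78 ± 0.32, adjusted p = 0.354). Mki67, the coat protein of mitotic chromosomes known as Ki-67 (chromosome 7, 135689784 to 135716361), had 9.29 and 13.3 FPKM in labelled knockouts, against 6.64, 5.21 and 8.30 in wild type (0.67 ± 0.34, adjusted p = 0.427). Bub1, Top2a, Cdk1 and Mki67 did not overlap between the groups. Ccnb1 had 9.50 and 6.67 FPKM in labelled knockouts, within the wild-type span of 8.34, 4.31 and 10.5. The G1/S median exceeded the G2/M median by 0.48 on the log2 scale, with both sets above all tested genes.

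**Figure D3:**
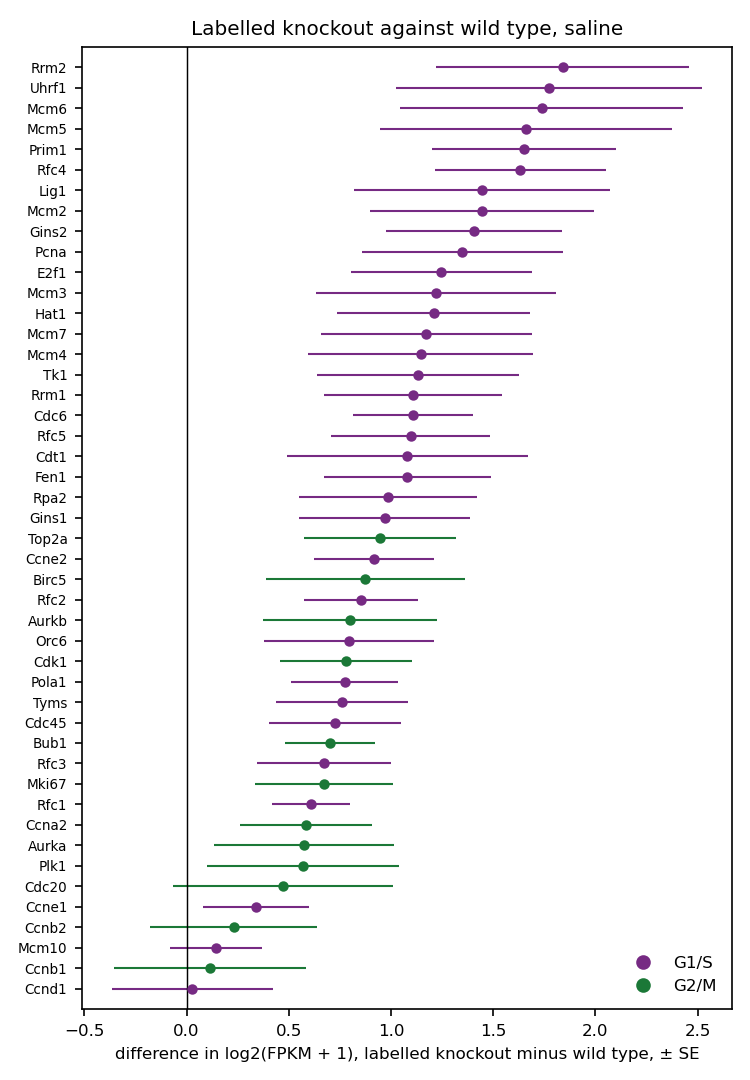
Difference in log2(FPKM + 1) between labelled knockouts and wild type given saline (horizontal axis, with limma's standard error) for the 46 tested genes, ordered by size and coloured by set. All 46 points lie right of 0, from 0.03 for Ccnd1 to 1.84 for Rrm2, and the lower part holds most G2/M genes.

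Fitted with the saline libraries alone, 13 of 46 genes passed, all higher (Mcm4, Mcm5, Mcm6, Pcna, Rfc4, Gins2, Prim1, Rrm2, Rpa2, Uhrf1, Hat1, Ccne2 and E2f1), where 0.797% of 10163 genes passed in either direction. The fit to all 9 libraries takes its spread from the leonurine groups too, whose pairs of libraries differ most in these genes. The summed FPKM of 11 erythroid markers was 249 to 408 in labelled knockouts given saline, against 181 to 232 in wild type given saline, and that of 7 neutrophil precursor markers 25.2 to 34.3, against 12.1 to 24.7. Of the erythroid list 7 and of the precursor list 2 were tested, 0 of these passed with limma, 3 and 0 were higher at an unadjusted p under 0.05, and no marker was at 0 in every library. Most precursor fragments came from Prtn3 and Cebpe. Prtn3 overlapped, at 604 and 917 fragments in labelled knockouts against 700, 326 and 181 in wild type. The median log2 difference of the 7 precursor markers was 0.04. Neutrophil markers (10 genes) summed to 6.78 to 15.2 FPKM in labelled knockouts and 10.6 to 49.6 in wild type. Their median log2 difference was -0.17, with 2 above 0 and 0 passing. Hepatocyte markers (9 genes) summed to 66780 to 67520 in labelled knockouts and 70030 to 77480 in wild type, with a median log2 difference of -0.13 and 0 passing. Endothelial markers (7 genes) summed to 93.3 to 103.2 in labelled knockouts and 86.6 to 92.7 in wild type. Their median log2 difference was -0.04, with 0 passing. Sums of the lymphocyte, macrophage, cholangiocyte and stellate lists overlapped, with 0 markers passing. Their part in the result was not tested.

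The next comparison set leonurine against saline in the labelled knockouts. Most genes of both sets were lower with leonurine, by medians of -1.04 (G1/S) and -1.15 (G2/M) on the log2 scale, against -0.19 for all tested genes. Both leonurine libraries lay below both saline libraries in 36 of 47 genes (26 of 35 G1/S and 10 of 12 G2/M), where 40.8% of all tested genes did so, and above them in 0, where 8.61% did. With limma, 1 gene passed, Ccne1, which fell, where 1.49% of tested genes fell and 0.603% rose. At an unadjusted p under 0.05, 24 of 46 were lower (16 G1/S and 8 G2/M), against 18.9% of tested genes, and 0 were higher, against 3.52%.

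Ccne1 (cyclin E1, which with CDK2 triggers S phase; chromosome 7, 38097984 to 38107534) had 1.73 and 0.795 FPKM in labelled knockouts given leonurine, against 5.69 and 5.17 in labelled knockouts given saline. The drop, -1.54 ± 0.29 on the log2 scale, passed (adjusted p = 0.0284), and the groups did not overlap. The call ended in 7 of 16 alternatives (adjusted p = 0.00904 to 0.15 over them), namely with no filter on low values, without the second leonurine library, and without either saline library or any wild-type saline library. Ccne2 had 1.63 and 1.14 FPKM in labelled knockouts given leonurine, against 6.20 and 5.13 with saline (-1.49 ± 0.32, adjusted p = 0.0506). The E-type cyclins were thus low in both leonurine libraries.

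In other G1/S genes the first leonurine library mostly lay above the second. Rrm2 had 13.4 and 4.72 FPKM in labelled knockouts given leonurine, against 33.5 and 46.4 with saline (-2.16 ± 0.68, adjusted p = 0.124). Prim1 had 5.28 and 1.30 FPKM with leonurine, against 8.70 and 12.6 with saline (-1.60 ± 0.49, adjusted p = 0.121). Mcm10 had 8.29 and 8.86 FPKM with leonurine, against 17.9 and 16.4 with saline (-0.92 ± 0.25, adjusted p = 0.0922). Mcm10 was the gene, 1 of the 47, in which the second leonurine library was the higher of the pair. Tk1 (thymidine kinase, which salvages thymidine; chromosome 11, 117815526 to 117826092) had 34.5 and 14.8 FPKM with leonurine, against 20.2 and 30.0 with saline, and overlapped. Ccnd1 overlapped too, at 69.8 and 26.3 FPKM with leonurine against 39.0 and 46.7 with saline.

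Among the mitotic genes, Mki67 had 5.78 and 2.05 FPKM in labelled knockouts given leonurine, against 9.29 and 13.3 with saline (-1.42 ± 0.37, adjusted p = 0.0854). Top2a had 5.89 and 1.79 FPKM with leonurine, against 9.30 and 14.2 with saline (-1.51 ± 0.41, adjusted p = 0.0924). Bub1 had 0.628 and 0.179 FPKM with leonurine, against 1.52 and 1.63 with saline (-0.89 ± 0.24, adjusted p = 0.0926). Ccna2 (cyclin A2, which works in S phase and in G2; chromosome 3, 36564865 to 36572150) had 5.96 and 1.84 FPKM with leonurine, against 9.20 and 9.12 with saline (-1.19 ± 0.35, adjusted p = 0.114). Every leonurine library was below every saline library in these 4 genes, and 0 of them passed. Cdc20 and Ccnb1 overlapped, since the first leonurine library had 13.1 FPKM of Cdc20 and 6.99 of Ccnb1, against saline values of 11.5 and 14.1 for Cdc20 and 9.50 and 6.67 for Ccnb1. The G1/S and G2/M medians differed by 0.11.

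The number of genes that passed depended on the libraries used. It was 7 of 46 without the first leonurine library of the labelled knockout (Ccne1, Ccna2, Top2a, Mki67, Plk1, Aurka and Cdc20, all lower), where 1.31% of all tested genes passed in either direction, and 0 without the second. Either fit leaves that group with 1 library, assumed to vary like the other groups. It was 4 without either wild-type leonurine library (Mcm10, Rrm2, Ccne1 and Ccne2), where 3.1% and 3.08% of tested genes passed, and 0 without either labelled knockout saline library or any of the 3 wild-type saline libraries. Hepatocyte markers summed to 83910 to 86450 FPKM in labelled knockouts given leonurine, against 66780 to 67520 with saline. That sum is mostly albumin (Alb), at 65050 and 67810 FPKM with leonurine against 48990 and 49490 with saline, while the median log2 difference of the 9 markers was -0.02, with 4 above 0 and 0 passing. Erythroid markers summed to 366 to 789 FPKM with leonurine, against 249 to 408 with saline, but went both ways: of 7 tested, 1 passed as lower (Alas2), and at an unadjusted p under 0.05, 3 were higher and 2 lower. Neutrophil markers summed to 27.1 to 66.2 FPKM with leonurine, against 6.78 to 15.2 with saline, and 1 of 8 tested passed, as higher. Lymphocyte markers summed to 8.445 to 10.4 FPKM with leonurine, against 4.62 to 6.04 with saline, with 1 of 12 tested and not passing. Stellate markers summed to 84.7 to 89.7 against 103.5 to 143, and cholangiocyte markers to 46.33 to 46.45 against 69.8 to 71.2, with 0 passing. Macrophage, endothelial and neutrophil precursor sums overlapped, and 1 of 8 tested macrophage markers passed, as lower. Their part in the result was not tested, and sex cannot be told apart from the injection here.

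Labelled knockouts and wild type were also compared under leonurine. The groups overlapped in 40 of 47 genes. Mcm10 and Tk1 were higher without overlap (25.6% of tested genes were), and Ccne1, Ccnb1, Plk1, Aurka and Cdc20 were lower (26.4% were), so that both shares of the 47 were below those of all tested genes. The G1/S median was -0.14 and the G2/M median -0.75, a difference of 0.61, beside 0.01 for all tested genes, and all 12 G2/M differences were below 0. With limma, Tk1 was called higher, where 6.99% of tested genes were, and Ccne1 lower, where 5.25% were. At an unadjusted p under 0.05, 2 of 46 genes were higher and 3 lower, against 15.0% and 13.2% of tested genes.

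Tk1 had 34.5 and 14.8 FPKM in labelled knockouts given leonurine, against 9.33 and 2.0 in wild type given leonurine (2.09 ± 0.54, adjusted p = 0.0358). This call ended in 10 of 17 alternatives, with adjusted p-values of 0.00438 to 0.210 over all of them. Tk1 shares 83 exonic bases with Afmid, an enzyme of tryptophan breakdown on the other strand, and the use of strand in counting is not known from the sources used here. Afmid had 34.7 and 25.5 FPKM in labelled knockouts given leonurine, against 5.14 and 1.07 in wild type given leonurine, and its part in the Tk1 value was not tested. Ccne1 had 1.73 and 0.795 FPKM in labelled knockouts given leonurine, against 5.57 and 2.57 in wild type given leonurine (-1.13 ± 0.29, adjusted p = 0.0330), and that call ended in 9 of 16 alternatives (adjusted p = 0.0145 to 0.132). Neither gene overlapped between the groups. Mcm10 had 8.29 and 8.86 FPKM in labelled knockouts given leonurine, against 7.06 and 3.31 in wild type (0.70 ± 0.25, adjusted p = 0.0985). Pola1, the catalytic subunit of the priming polymerase (chromosome X, 93304767 to 93632155), had 2.04 and 1.07 FPKM in labelled knockouts, against 1.67 and 0.413 in wild type (0.37 ± 0.29, adjusted p = 0.441).

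In the 4 mitotic genes that did not overlap, the first labelled knockout library lay nearer to wild type than the second did, closest in Cdc20. Ccnb1 (chromosome 13, 100778650 to 100786570) had 6.99 and 1.34 FPKM in labelled knockouts given leonurine, against 10.8 and 12.2 in wild type given leonurine (-1.53 ± 0.51, adjusted p = 0.0859). Aurka, the Aurora kinase of the centrosome and spindle (chromosome 2, 172356190 to 172370535), had 4.87 and 0.787 FPKM in labelled knockouts, against 7.06 and 7.45 in wild type (-1.35 ± 0.48, adjusted p = 0.102). Plk1 (chromosome 7, 122159439 to 122169873) had 4.97 and 0.618 FPKM in labelled knockouts, against 6.10 and 5.66 in wild type (-1.14 ± 0.52, adjusted p = 0.182). Cdc20 (chromosome 4, 118432901 to 118437352) had 13.1 and 1.86 FPKM in labelled knockouts, against 13.5 and 13.6 in wild type (-1.20 ± 0.59, adjusted p = 0.219). Without the first labelled knockout leonurine library, Ccna2, Ccnb1, Plk1, Aurka and Cdc20 passed as lower (5 of 46, where 2.99% of tested genes passed in either direction), while Tk1 and Ccne1 did not pass. The number passing was 1 without the second labelled knockout leonurine library (Tk1), without either labelled knockout saline library or without the second wild-type leonurine library (Ccne1 in each), and 0 without any wild-type saline library. In each of these 4 fits with 1 gene passing, at least 5.25% of tested genes passed. Without the first wild-type leonurine library Mcm10 and Tk1 passed as higher and Ccne1 did not pass, where 14.8% of tested genes passed. Hepatocyte markers summed to 83910 to 86450 FPKM in labelled knockouts, against 35450 to 59710 in wild type, erythroid markers to 366 to 789 against 98.0 to 102, and neutrophil markers to 27.1 to 66.2 against 66.1 to 155.5. Of the tested markers, 2 of 9 hepatocyte and 5 of 7 erythroid ones passed as higher and 1 of 8 neutrophil ones as lower. Lymphocyte markers summed to 8.445 to 10.4 FPKM against 2.0 to 5.23. Cholangiocyte markers summed to 46.33 to 46.45 against 62.0 to 156, and stellate markers to 84.7 to 89.7 against 90.1 to 127.5. In each of these 2 lists 1 marker passed, as lower. Macrophage, endothelial and neutrophil precursor sums overlapped, with 1 macrophage marker lower and 1 endothelial marker passing in each direction. Their part was not tested, and sex cannot be told apart from genotype here.

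**Figure D4:**
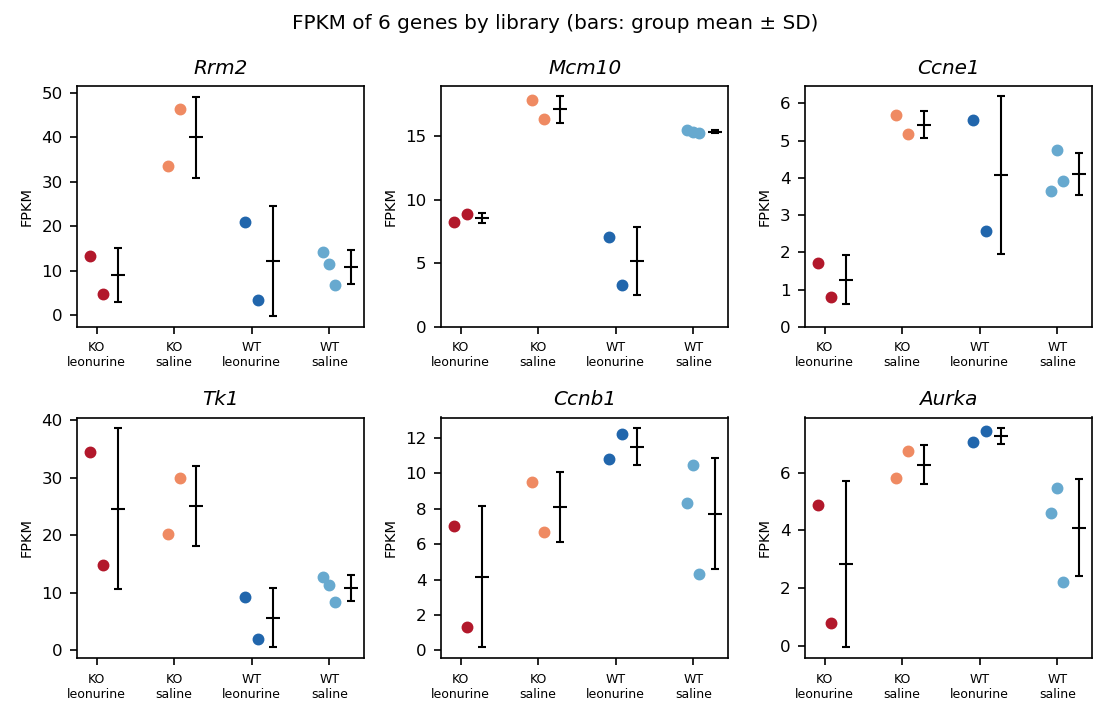
FPKM of Rrm2, Mcm10, Ccne1, Tk1, Ccnb1 and Aurka in each library (points) by group, with the group mean and SD as bars beside them; KO stands for labelled knockout. Mcm10 is low in both libraries of both leonurine groups, Ccne1 is low in labelled knockouts given leonurine (1.73 and 0.795 FPKM), and Rrm2 is high in labelled knockouts given saline (33.5 and 46.4 FPKM).

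Leonurine was then set against saline in wild type. Mcm10 fell, while the medians were 0.13 for G1/S and 0.25 for G2/M genes, beside -0.12 for all tested genes. Mcm10 had 7.06 and 3.31 FPKM in wild type given leonurine, against 15.5, 15.3 and 15.4 with saline. Its log2 difference was -1.47 ± 0.23 (adjusted p = 0.0096). It was the lone gene of the 46 that passed, where 1.9% of tested genes rose and 4.72% fell, and at an unadjusted p under 0.05 it was also the 1 gene that was lower, with 0 higher (18.1% and 6.31% of tested genes). The call held in 17 of 18 alternatives, whose adjusted p-values ran from 0.000304 to 0.0564.

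Groups separated in 5 genes, with Mcm10 below saline (34.2% of tested genes were) and Ccnb1, Plk1, Aurka and Cdc20 above it (12.8% were). Aurka had 7.06 and 7.45 FPKM in wild type given leonurine, against 4.60, 2.22 and 5.45 with saline (0.76 ± 0.44, adjusted p = 0.327). Plk1 had 6.10 and 5.66 FPKM with leonurine, against 4.52, 1.998 and 4.64 with saline (0.60 ± 0.47, adjusted p = 0.478). Ccnb1 had 10.8 and 12.2 FPKM with leonurine, against 8.34, 4.31 and 10.5 with saline (0.59 ± 0.47, adjusted p = 0.484). For Cdc20 the values were 13.5 and 13.6 FPKM with leonurine and 10.1, 5.89 and 11.7 with saline (0.55 ± 0.54, adjusted p = 0.579). In all 4 genes the leonurine libraries were near each other and above saline, and none of the differences passed.

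The other 34 G1/S genes overlapped. Tk1 had 9.33 and 2.0 FPKM in wild type given leonurine, against 12.7, 8.41 and 11.4 with saline (-1.07 ± 0.49, adjusted p = 0.221). Fen1, the flap nuclease of lagging-strand synthesis (chromosome 19, 10199132 to 10204169), had 8.55 and 3.34 FPKM with leonurine, against 4.04, 2.03 and 4.43 with saline (0.56 ± 0.41, adjusted p = 0.439). Ccne2 (chromosome 4, 11191351 to 11204779) had 3.11 and 0.759 FPKM with leonurine, against 2.50, 2.44 and 2.63 with saline (-0.39 ± 0.29, adjusted p = 0.458). The first leonurine library was above the second in all 3. Without the first leonurine library, 3 of 46 genes passed, all lower (Mcm10, Tk1 and Ccne2), where 12.8% of tested genes passed in either direction. Neutrophil markers summed to 66.1 to 155.5 FPKM with leonurine, against 10.6 to 49.6 with saline, hepatocyte markers to 35450 to 59710 against 70030 to 77480, and erythroid markers to 98.0 to 102 against 181 to 232. Of the tested markers, 3 of 8 neutrophil ones passed as higher, and 2 of 9 hepatocyte ones and 1 of 7 erythroid ones (Alas2) as lower. Neutrophil precursor markers summed to 30.7 to 51.3 FPKM with leonurine, against 12.1 to 24.7 with saline. Their median log2 difference was 0.07, and 0 of 2 tested passed. Sums of the lymphocyte, macrophage, cholangiocyte, endothelial and stellate lists overlapped. In these, 1 of 4 tested cholangiocyte, 1 of 7 endothelial and 1 of 8 stellate markers passed, all as higher. Their part in the result was not tested.

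**Figure D5:**
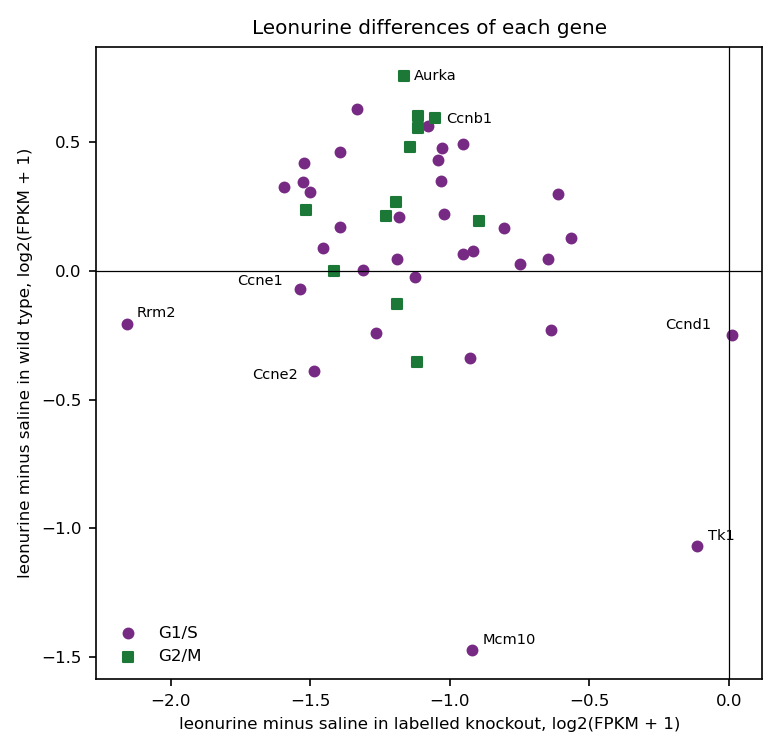
Leonurine minus saline in labelled knockouts (horizontal axis) and in wild type (vertical axis), both in log2(FPKM + 1), for 46 genes, with G1/S genes as circles and G2/M genes as squares. Most points lie left of 0 and within 1 unit of 0 on the vertical axis; Mcm10 (-0.92 and -1.47) and Tk1 (-0.11 and -1.07) lie lowest.

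The difference between these responses was tested as an interaction. With limma, 0 of 46 genes had an adjusted p under 0.05, where 1.71% of tested genes were called with a more positive response in labelled knockouts and 2.03% with a more negative one. At an unadjusted p under 0.05, 19 genes had a more negative response in the labelled knockout (10 G1/S and 9 G2/M), against 11.9% of tested genes, and 0 a more positive one, against 8.67%. The medians were -1.24 for G1/S and -1.54 for G2/M genes, beside -0.07 for all tested genes. Among G1/S genes, Ccne1 differed by -1.47 ± 0.39 (adjusted p = 0.0718), Rfc4 by -1.86 ± 0.62 (0.131), Prim1 by -1.92 ± 0.67 (0.143) and Cdc6 by -1.24 ± 0.43 (0.144). Among G2/M genes, Bub1 differed by -1.09 ± 0.33 (adjusted p = 0.1004), Top2a by -1.75 ± 0.55 (0.114), Cdk1 by -1.46 ± 0.48 (0.125) and Aurka by -1.92 ± 0.65 (0.136). Without the first labelled knockout leonurine library 6 of 46 genes passed, all more negative (Ccna2, Top2a, Plk1, Aurka, Cdc20 and Birc5), where 1.75% of tested genes passed in either direction. Without the first wild-type one 1 passed (Mcm10, more positive), where 7.82% of tested genes did, and without the second wild-type one 2 passed (Ccne1 and Ccne2), where 2.34% did.

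Genes of the same pathway outside the 47 were counted in lists. Of 38 further replication factors, 34 lay above wild type without overlap in labelled knockouts given saline, as did 27 of 40 further mitotic genes, where 27.6% of all tested genes did. For 23 CDK inhibitors and repressors this number was 11, for 13 CDKs, D cyclins and entry genes 4, and for 16 liver mitogens and receptors 0. With leonurine in labelled knockouts, 23 of the 38 replication factors and 33 of the 40 mitotic genes lay below saline without overlap, against 40.8% of all tested genes, and 0 lay above. Of the 23 CDK inhibitors and repressors 12 lay below and 6 above. For the 13 CDKs, D cyclins and entry genes these numbers were 7 and 1, and for the 16 liver mitogens and receptors 6 and 0. Of all tested genes, 8.61% lay above. In these lists limma called 0 genes between labelled knockout and wild type under saline, where 0.00957% of all tested genes passed in each direction. At an unadjusted p under 0.05, 18 of 36 tested replication factors and 6 of 37 tested mitotic genes were higher, against 9.95% of all tested genes. The median log2 difference under saline was 0.65 for the replication factors and 0.47 for the mitotic genes. These medians lay nearer to each other than those of the G1/S and G2/M members (1.11 and 0.63).

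A few genes of these lists passed elsewhere. With leonurine in wild type, Ung, the uracil-DNA glycosylase, rose, with 8.14 and 4.97 FPKM with leonurine against 3.10, 2.47 and 3.43 with saline (0.89 ± 0.21, adjusted p = 0.0421). Tnfrsf1a, a tumour necrosis factor receptor, rose too, with 67.8 and 80.0 FPKM against 43.9, 35.1 and 43.3 (0.85 ± 0.17, adjusted p = 0.0247). These were 1 of 36 tested replication factors and 1 of 11 tested mitogens and receptors, where 1.9% of all tested genes rose and 4.72% fell. No gene of the other lists passed there. In labelled knockouts Cdkn1c, the CDK inhibitor p57, rose with leonurine, at 2.14 and 2.44 FPKM with leonurine against 0.949 and 0.681 with saline (0.86 ± 0.17, adjusted p = 0.0366). It was 1 of 19 tested CDK inhibitors and repressors, where 0.603% of all tested genes rose and 1.49% fell. Under leonurine, Cdkn1a, the CDK inhibitor p21, was lower in labelled knockouts, with 6.24 and 12.4 FPKM against 37.0 and 32.2 in wild type (-1.85 ± 0.50, adjusted p = 0.0408). So were the hepatocyte mitogens Hgf (-1.42 ± 0.34, adjusted p = 0.0275) and Tgfa (-1.44 ± 0.29, adjusted p = 0.0135). Dbf4, the activator of the origin-firing kinase CDC7, was lower as well (-1.08 ± 0.28, adjusted p = 0.0353), as was Tnfrsf1a (-0.74 ± 0.19, adjusted p = 0.0342). Orc5, an origin recognition subunit, was higher in labelled knockouts (0.95 ± 0.20, adjusted p = 0.0177), as was Cdkn1c (1.16 ± 0.17, adjusted p = 0.00437). Under leonurine, 1 of 36 tested replication factors was thus called higher and 1 lower, and the same held for 19 tested CDK inhibitors and repressors. Of 11 tested mitogens and receptors 3 were called lower, and of 37 tested mitotic genes 0 were called. Among all tested genes, 6.99% were called higher and 5.25% lower. In the interaction, Smc2, a condensin subunit, and E2f8, a repressor of E2F targets, responded more negatively in labelled knockouts, and Cdkn1c more positively. Among all tested genes, 2.03% passed as more negative and 1.71% as more positive.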

How the data were processed

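Liver RNA of 9 libraries was sequenced, and the authors deposited 1 table of FPKM values for 16857 genes. Tools listed in the submitters' processing notes are HISAT2, HTSeq, fastp and R 3.2.0, with build mm10. Their order, the annotation, filters and strand are not given in the sources used here. Libraries were grouped by title. FPKM values of each gene came out as whole fragments for 16857 of 16857 genes at a tolerance of 0.0001, which gave the depths. No pair of libraries agreed within sampling noise (smallest chi-square per degree of freedom 30.8). A share of 20.5% to 30.0% of fragments came from the 10 most abundant genes, which can lower FPKM elsewhere.

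Differences were tested with limma 3.58.1 in R 4.3.3 on log2(FPKM + 1), which understates changes of low genes, over the 10451 genes that reached 1 FPKM in at least 2 libraries. The model held 1 mean per group over all 9 libraries (5 residual and 4.42 prior degrees of freedom, with a trend), Benjamini-Hochberg adjustment ran over all tested genes, and the threshold for a call was an adjusted p of 0.05. The code was tested on simulated data. Groups count as not overlapping when every library of one lies above every library of the other.

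The members and lists were chosen with earlier results of these data known. Named genes are all members called anywhere and the 4 G1/S and 4 G2/M members with the smallest p per comparison, plus called genes of the other lists; further members were added as examples of their role, after their values were seen. Gene positions are from GENCODE M21 (GRCm38, the assembly of mm10), and 14 members share exonic bases with another protein-coding gene. Alternatives were a pseudocount of 0.1, other filters, median-ratio scaling, quantile normalization, array weights, the replicate number as a block, the groups of a comparison alone, and each library left out. A fit without both libraries of labelled knockouts given leonurine was chosen after seeing the data.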

Additional observations from a re-analysis of the deposited data

Results flagged for a closer look

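The leonurine responses of the genotypes were compared for the 46 tested members. They were also compared for those of 114 tested genes of the pathway lists that passed in some comparison, the interaction included. Limma's interaction passed for 0 of the 46 members and 3 of the 114 list genes. Of all tested genes, 1.71% passed it as more positive and 2.03% as more negative. Smc2 and E2f8 passed in no other comparison, so the interaction itself brought them in. For Smc2, the response in labelled knockouts minus that in wild type was -1.71 ± 0.37 on the log2 scale (adjusted p = 0.0404). Smc2 had 1.95 and 0.947 FPKM in labelled knockouts given leonurine, 4.78 and 4.28 in labelled knockouts given saline, 4.33 and 2.09 in wild type given leonurine, and 1.92, 1.46 and 2.22 in wild type given saline. E2f8 differed by -1.80 ± 0.37 (adjusted p = 0.0346), and Cdkn1c differed by 1.23 ± 0.23 (adjusted p = 0.0244).

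In 4 others of these genes both leonurine libraries lay below saline in labelled knockouts and above saline in wild type. These were Aurka (-1.92 ± 0.65, adjusted p = 0.136), Plk1 (-1.71 ± 0.70, adjusted p = 0.203), Ung (-1.28 ± 0.32, adjusted p = 0.0618) and Hgf (-1.64 ± 0.46, adjusted p = 0.0831), and limma's interaction did not pass for any of them. Counted whether they passed a test or not, 2 of 46 members and 12 of 114 list genes, 7 of these among 37 mitotic genes, showed that pattern, against 5.38% of all tested genes. The opposite pattern was found in 0 members and 1 list gene (Cdkn1c), against 3.77% of all tested genes. Each of these values rests on the labelled knockouts given leonurine, which lack Y-linked transcripts.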

How the results depend on the processing

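Mcm10 in wild type given leonurine was lost only with the replicate number as a block (0 genes called there, adjusted p = 0.0564 for Mcm10). The numbers were not taken as pairing samples, since correlations of same-numbered libraries ran from 0.02 to 0.154; the block gave 2 calls with leonurine in labelled knockouts (Ccne1 and Cdk1). Without both libraries of labelled knockouts given leonurine, an alternative chosen after seeing the data, 1 gene passed in wild type and 0 under saline. The saline libraries alone gave 13 calls, against 0. With leonurine in labelled knockouts there were 0 calls with no filter, 0 at a mean FPKM of at least 5 and 2 with the groups of the comparison alone. The filter on a mean FPKM of at least 5 leaves Ccne1 (0.795 to 5.69 FPKM) untested in every comparison. Between genotypes under leonurine there were 0 with no filter, 1 at a mean FPKM of at least 5, 0 with array weights and 0 with the groups of the comparison alone, and median-ratio scaling gave 1 in the interaction. With each library left out, calls ranged from 1 to 3 (leonurine in wild type), 0 to 0 (saline), 0 to 7 (leonurine in labelled knockouts), 0 to 5 (genotypes under leonurine) and 0 to 6 (interaction).

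The G1/S minus G2/M difference under saline, 0.48, ran from 0.39 to 0.57. Elsewhere it depended on 1 library. In wild type given leonurine it was -0.12, and ran from -0.42 without leonurine replicate 1 to 0.16 without replicate 2. With leonurine in labelled knockouts it was 0.11, and ran from -0.053 without saline replicate 1 to 0.21 without saline replicate 2. Between genotypes under leonurine it ran from 0.29 to 0.96, and in the interaction from -0.25 to 0.71. In wild type Fen1 ran from -0.0066 without leonurine replicate 1 to 1.13 without replicate 2, and Ccne2 from -1.0 without replicate 1 to 0.22 without replicate 2. Between genotypes under leonurine, Pola1 ran from -0.092 without wild-type leonurine replicate 2 to 0.83 without replicate 1. The cause was not tested. Median-ratio scaling moved the median of all genes from -0.12 to 0.002 in wild type given leonurine, where the G1/S and G2/M medians were then 0.20 and 0.38, and from -0.19 to -0.02 in labelled knockouts given leonurine, where they were -0.91 and -0.99. Orc1 (1 to 52 fragments) is too shallow to compare.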
